A study of Mus musculus with 4 samples.

Results

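The expression of ZIC1, ZIC2, ZIC4 and ZIC5, zinc finger transcription factors of the ZIC family, was examined in the anterior and posterior lobes of the developing mouse cerebellum. The members were every probe carrying one of these 4 symbols on an Illumina MouseWG-6 version 2.0 bead array, on which the signal of a probe is the average brightness of the beads that carry its short DNA sequence. There were 9 such probes of 45281 on the array, and the 4 genes were 4 of 30854 symbols. Both lobe groups came from Swiss mice at postnatal day 7, received no treatment, and differed only in the lobe that was dissected. RNA of 2 anterior and 2 posterior samples was hybridized to 1 array each. Each lobe was taken whole, so its RNA comes from all of its cell types, and the number of animals per sample and their sex are not given in the sources used here. The labels do not state that the replicates came from separate animals, though the sex-linked genes given below differed between them. The tests measure only the spread between these samples.

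ZIC proteins are built around a row of C2H2 zinc fingers that resembles that of the GLI proteins, the effectors of Sonic hedgehog signalling, and they act both as DNA-binding factors and as partners of other regulators. In the cerebellum ZIC1 and ZIC2 are long-known markers of the granule neuron lineage, from the dividing progenitors of the external granule layer to the granule neurons that settle in the internal granule layer. Loss of Zic1 in mice gives a small cerebellum with abnormal lobes, and deletions that take in ZIC1 and ZIC4 have been linked to Dandy-Walker malformation in humans. ZIC2 is a gene of holoprosencephaly and also guides the choice of side made by retinal axons. ZIC genes are active outside neurons too, in the meninges that cover the cerebellum.

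The genes lie in head-to-head pairs. ZIC1 and ZIC4 are neighbours on mouse chromosome 9, and ZIC2 and ZIC5 are neighbours on chromosome 14, with 0 other protein-coding genes between the members of either pair in the RefSeq annotation. That annotation lists 36 transcripts for ZIC4, 2 for ZIC1, 2 for ZIC5 and 1 for ZIC2. The curated records among them number 2 for ZIC4, 2 for ZIC1, 1 for ZIC5 and 1 for ZIC2. The array table pairs a probe with a gene symbol and not with a transcript, so each probe was kept apart. Start regions of 300 bases, with 250 before and 50 after an annotated start, were matched for 3 of the 4 genes and are shown because ZIC1 and ZIC4 were detected in both lobes while ZIC5 was not. They are RefSeq sequences of GRCm38.p6, from chr9:91365719-91366018 (minus strand) for ZIC1, chr9:91368722-91369021 (plus strand) for ZIC4 and chr14:122465609-122465908 (minus strand) for ZIC5, written 5′ to 3′ with each CG dinucleotide in capitals.
ZIC1: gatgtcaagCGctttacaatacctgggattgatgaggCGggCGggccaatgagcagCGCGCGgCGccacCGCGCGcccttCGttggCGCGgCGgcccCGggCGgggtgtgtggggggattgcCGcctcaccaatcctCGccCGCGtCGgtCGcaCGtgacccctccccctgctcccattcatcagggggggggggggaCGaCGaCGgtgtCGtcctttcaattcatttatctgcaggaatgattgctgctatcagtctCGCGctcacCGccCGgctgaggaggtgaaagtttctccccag
ZIC4: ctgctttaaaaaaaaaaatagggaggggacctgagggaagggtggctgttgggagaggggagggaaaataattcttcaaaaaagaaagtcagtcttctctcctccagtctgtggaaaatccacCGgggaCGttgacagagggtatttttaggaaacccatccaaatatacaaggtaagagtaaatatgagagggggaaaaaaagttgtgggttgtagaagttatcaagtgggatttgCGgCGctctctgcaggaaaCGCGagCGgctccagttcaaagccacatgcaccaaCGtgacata
ZIC5: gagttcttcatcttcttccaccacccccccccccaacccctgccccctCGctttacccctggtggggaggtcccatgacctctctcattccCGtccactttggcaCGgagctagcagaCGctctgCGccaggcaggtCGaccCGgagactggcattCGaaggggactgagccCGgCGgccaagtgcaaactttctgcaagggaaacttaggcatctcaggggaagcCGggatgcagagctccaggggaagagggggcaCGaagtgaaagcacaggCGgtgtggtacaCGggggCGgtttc

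The ZIC1 region held 31 CG dinucleotides at 65.3% G plus C, and 89.4% of the 32841 start regions in the same table held fewer. The ZIC4 region held 8 at 46.0%, close to the median of 7 over all regions, and that of ZIC5 held 15 at 62.7%. Only some of the annotated ZIC4 transcripts can begin in the region shown. The motifs were searched on both strands, none of which contains another. CCAAT occurred 2 times in the ZIC1 region and in neither other, against 37.4% of all regions with at least 1 match. TATAAA, found in 13.6% of all regions, and CAGCAGG, a core of the sites reported for ZIC proteins and found in 10.5%, matched in 0 of the 3. These matches describe the letters of the windows and not binding.

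The median intensity of the arrays was between 110.2 and 129.6, with a median of 40 to 42 beads per probe, and between 46.5% and 47.6% of the probes per array were detected, meaning that under 5% of the negative control probes were as bright. After a filter for detection on 2 or more arrays, 21726 probes were tested following quantile normalization, posterior minus anterior, with limma. The anterior arrays differed more from each other than the posterior arrays did, with an SD of the log2 difference of 0.318 against 0.203 over the tested probes. The samples of replicates 1 and 2 also differed in composition. The summed signal of the detected choroid plexus markers TTR and CLIC6 was 1009 and 11083 on the anterior arrays of replicates 1 and 2, and 599.5 and 4060 on the posterior arrays. XIST, made from the inactive X chromosome, was higher on the arrays of replicate 1 by 6.08 on the log2 scale averaged over the lobes. For the Y chromosome gene DDX3Y the same difference, replicate 1 minus replicate 2, was -2.57. The replicates thus differed in the sex make-up of their animals. The labelled tissue was matched by the Purkinje cell gene PCP2 and the granule neuron gene CBLN1, detected on all 4 arrays, while the forebrain genes EMX1 and EMX2 were not detected. With 2 arrays per lobe, the smallest two-sided p of an exact permutation test is 0.33.

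ZIC1, ZIC2 and ZIC4 were expressed in both lobes and ZIC5 was not detected in either. The 7 detected probes of the former were bright enough to be detected on all 4 arrays. A probe of ZIC2 was higher in the posterior lobes by 1.64-fold, the single ZIC probe to pass the criterion given in the study's methods, a change of over 1.2-fold with an unadjusted p under 0.05. Against this 1 of 7 tested probes, higher and not lower, 8.29% of all tested probes passed the same criterion by limma, 3.30% higher and 5.00% lower in the posterior lobes. With the arrays shifted to a common 75th percentile in place of quantile normalization, 53.5% of the probes passing it were higher in the posterior lobes, against 39.7%. After Benjamini-Hochberg adjustment over all tested probes, 0 of the 7 ZIC probes stayed under 0.05 by limma without a replicate block. Their adjusted p-values by limma ran from 0.39 to 0.94, and 0.106% of all tested probes stayed under 0.05. At an unadjusted p under 0.05 there was 1 ZIC probe by limma and 0 by the methods' t-test. Over all 21726 tested probes the numbers under that threshold were 2185 and 1763, in the same order. The ZIC counts do not stand apart from these. The median difference of the ZIC probes was 0.03 on the log2 scale and that of all tested probes 0.0023. The median size of the difference, whatever its sign, was 0.15 and 0.10. In bulk tissue a lower signal from fewer cells of a type and from less RNA per cell cannot be told apart.

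**Figure D1:**
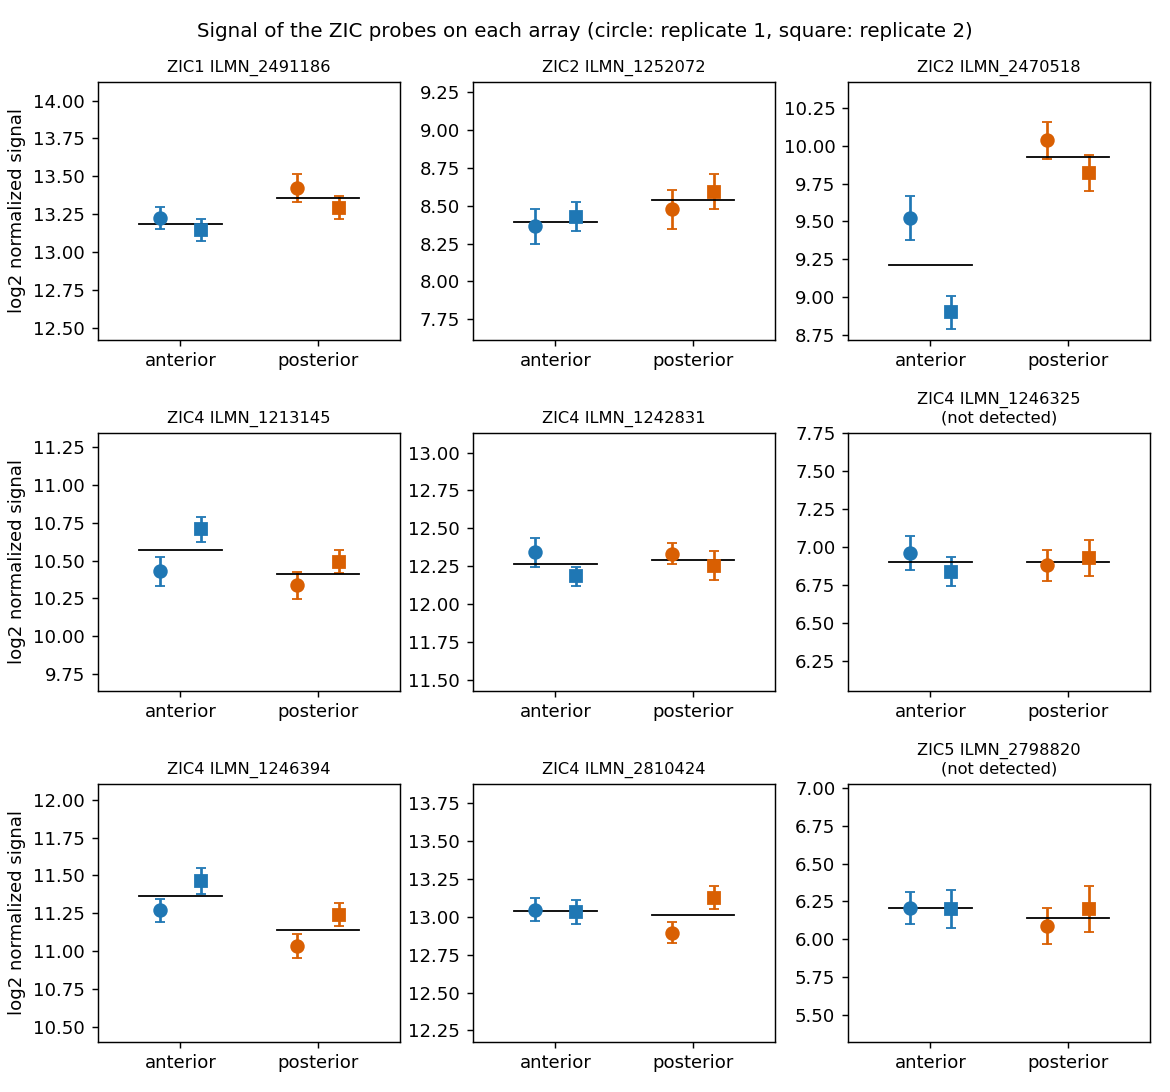
Log2 normalized signal (vertical axis, the same span in each panel) of the 9 ZIC probes on the 2 anterior (blue) and 2 posterior (orange) arrays, circles for replicate 1 and squares for replicate 2. Bars are 95% intervals of the bead mean and lines are lobe means. The arrays of ZIC2 ILMN_2470518 are the most widely spread, from 8.90 to 10.04, and the panels of ZIC4 ILMN_1246325 and ZIC5 show signal not detected above the negative controls.

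ZIC1 binds DNA in granule progenitors and is measured by a single probe, ILMN_2491186. Its deposited intensity was 10306 and 8311 on the anterior arrays of replicates 1 and 2, and 10698 and 10288 on the posterior arrays, each from 30 to 49 beads. After normalization the log2 signal was 13.23 and 13.15 in the anterior and 13.42 and 13.29 in the posterior lobes. Each posterior array exceeded the anterior ones, and the step between the closest of them was smaller than the step between the posterior arrays. The lobe means were 13.19 ± 0.056 (SD, n = 2 arrays) and 13.36 ± 0.090. The posterior signal was 1.13-fold that of the anterior lobes, a log2 difference of 0.17 (standard error 0.072, 95% confidence interval -0.0058 to 0.35, adjusted p = 0.51 by limma). The interval runs from 0.996-fold to 1.27-fold, so a difference between the lobes beyond 1.27-fold in either direction lies outside it. Of all tested probes, 29.8% had a larger difference.

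ZIC2, which in the cerebellum shares the granule lineage with ZIC1, was measured by a pair of probes. On ILMN_2470518 the intensity was 798.5 and 439.7 on the anterior arrays of replicates 1 and 2, and 1017 and 913.7 on the posterior arrays. The log2 signal was 9.52 and 8.90 in the anterior and 10.04 and 9.82 in the posterior lobes. Anterior replicate 2 was the low sample, and both posterior arrays were above both anterior arrays. The means were 9.21 ± 0.44 (SD, n = 2 arrays) and 9.93 ± 0.15. The log2 difference was 0.72 (standard error 0.22, 95% confidence interval 0.18 to 1.25, adjusted p = 0.39 by limma). Fitted with the replicate number as a block, the interval was 0.42 to 1.01 (adjusted p = 0.018 by limma). With the block 588 of the 21726 tested probes had an adjusted p under 0.05, against 23 without it. The labels do not say that a replicate number marks a shared animal. Only 1.62% of the tested probes had a larger difference, but the anterior arrays of this probe were 1.54-fold apart, and only 3.76% of the tested probes had anterior arrays farther apart. The error of the bead mean was 3.93% to 5.17% of the intensity on these arrays, less than the gap between the anterior arrays. Without anterior replicate 2 the log2 difference was 0.41, and without anterior replicate 1 it was 1.03, each with 1 anterior array left. Without posterior replicate 1 the difference was 0.61 and no longer passed the 1.2-fold criterion.

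The other ZIC2 probe, ILMN_1252072, had intensities of 361.1 and 315.9 on the anterior and 350.9 and 388.4 on the posterior arrays. Its log2 signal was 8.36 and 8.43 in the anterior and 8.48 and 8.59 in the posterior lobes. The posterior arrays were again the higher ones, by a step smaller than that between the replicates of either lobe. The log2 difference was 0.14 (standard error 0.12, 95% confidence interval -0.15 to 0.43, adjusted p = 0.72 by limma). Within an array, the log2 ratio of ILMN_1252072 to ILMN_2470518 was -1.16 and -0.47 on the anterior and -1.56 and -1.23 on the posterior arrays. The ratio was lower on both posterior arrays, by -0.58 on average, and the closest arrays of the lobes were nearer to each other than the anterior arrays were. The difference between the probes was not tested, and their confidence intervals overlap.

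ZIC4, the partner of ZIC1 in its gene pair, had 5 probes, of which 4 were detected on every array. The brightest of them, ILMN_2810424, had a log2 signal of 13.05 and 13.03 in the anterior and 12.90 and 13.13 in the posterior lobes. The lobes overlapped, with the highest and the lowest value both posterior, and the log2 difference was -0.03 (95% confidence interval -0.25 to 0.19, adjusted p = 0.94 by limma). ILMN_1242831 had 12.34 and 12.18 in the anterior and 12.33 and 12.25 in the posterior lobes. Here too the lobes overlapped, and the log2 difference was 0.03 (95% confidence interval -0.18 to 0.24, adjusted p = 0.93 by limma). The intervals of this pair of probes allow a posterior signal between 0.842-fold and 1.18-fold of the anterior signal. The direction of both changed when certain arrays were left out, and that of ILMN_2810424 also when the arrays were shifted to a common 75th percentile.

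The remaining detected ZIC4 probes had lower means in the posterior lobes. ILMN_1246394 had a log2 signal of 11.27 and 11.46 in the anterior and 11.04 and 11.24 in the posterior lobes, so that both posterior arrays were below both anterior arrays by a narrow step. Its means were 11.37 ± 0.14 (SD, n = 2 arrays) and 11.14 ± 0.15, and the log2 difference was -0.23 (standard error 0.11, 95% confidence interval -0.50 to 0.049, adjusted p = 0.56 by limma). ILMN_1213145 had 10.43 and 10.71 in the anterior and 10.34 and 10.49 in the posterior lobes, which overlap, with a log2 difference of -0.15 (95% confidence interval -0.47 to 0.16, adjusted p = 0.72 by limma). Neither passed the 1.2-fold criterion. Their log2 differences were -0.32 and -0.29 without anterior replicate 1, and -0.13 and -0.014 without anterior replicate 2. On both probes replicate 2 was the higher sample in each lobe, whereas on ZIC1 and on ZIC2 ILMN_2470518 it was the lower one.

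**Figure D2:**
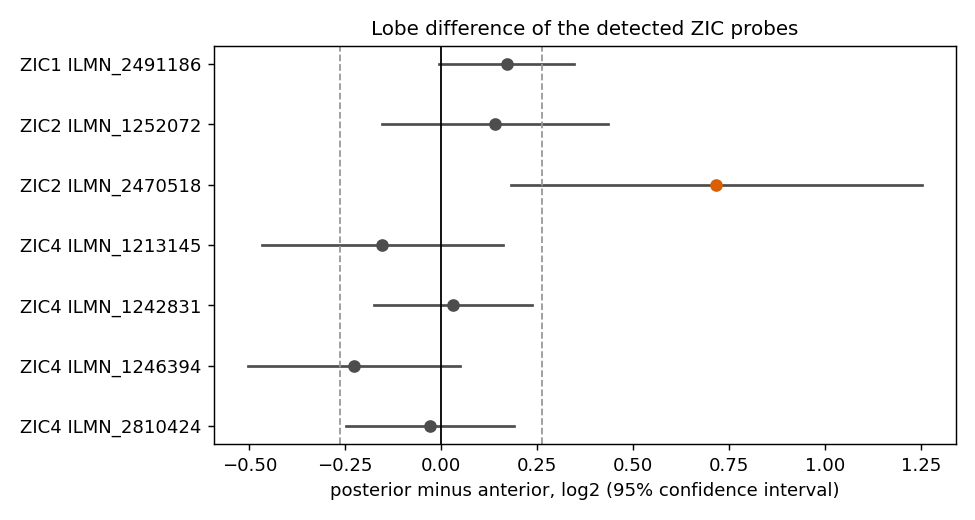
Log2 difference, posterior minus anterior (horizontal axis), of the 7 detected ZIC probes, with 95% confidence intervals from limma and dashed lines at 1.2-fold in either direction. ZIC2 ILMN_2470518 (orange) is the only one whose interval, 0.18 to 1.25, lies apart from 0.

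Set against each other over the 4 arrays, the ZIC4 probes fell into unlike profiles. Each profile was centred on its own mean, and the root mean square difference between profiles was taken in log2 units, as a description with no test. ILMN_1213145 and ILMN_1246394 differed by 0.051, the smallest value among all pairs of ZIC probes. ILMN_1242831 was closer to ZIC1, at 0.078, than to any other ZIC4 probe, the nearest of which was at 0.12. The ratio of ILMN_1246394 to ILMN_2810424 was -1.78 and -1.57 in the anterior and -1.86 and -1.88 in the posterior lobes, lower on both posterior arrays. ZIC2 ILMN_2470518 stood farthest from the rest, from 0.34 for ZIC1 to 0.57 for ZIC4 ILMN_1246394.

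The fifth ZIC4 probe and that of ZIC5 were not detected on any array. ZIC4 ILMN_1246325 had intensities of 133.3 and 104.1 on the anterior and 118.1 and 124.0 on the posterior arrays, under the dimmest detected probe of each array, which was between 116.9 and 139.8. A fraction of 0.065 to 0.11 of the negative controls was at least as bright, so it missed the threshold narrowly. The ZIC5 probe, ILMN_2798820, had 77.6 and 68.8 on the anterior and 68.4 and 74.2 on the posterior arrays. A fraction of 0.43 to 0.63 of the negative controls was at least as bright, so its signal was in the middle of the background. ZIC5 acts in early neural tube and neural crest development. It was measured by this probe alone, so an unexpressed gene and a probe that does not report it cannot be told apart. No fold is given for these probes.

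Over all 7 tested probes, the arrays of the lobes did not overlap for 4, the posterior arrays being the higher for 3 and the lower for 1. That is near the background, since 42.6% of all tested probes did not overlap either. The sign of the difference was positive for 4 probes and negative for 3.

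The GLI family, the closest relatives of the ZIC proteins, was tested with a single probe per gene. GLI2, GLI3, GLIS1 and GLIS2 were detected, and GLI1, a direct target of Sonic hedgehog signalling, and GLIS3 were not. Of the 4 tested genes 0 passed the 1.2-fold criterion, against 7.92% of 15615 genes, and their median log2 difference was 0.0052 against 0.0079 over all genes. Counting every tested probe in place of 1 per gene gave 1 call. GLI2, the main activator of the pathway, had 12.46 and 12.44 in the anterior and 12.56 and 12.38 in the posterior lobes. GLI3, which acts mostly as a repressor, had 10.73 and 10.72 against 10.88 and 10.99, higher on both posterior arrays (log2 difference 0.21, adjusted p = 0.51 by limma). GLIS1 differed by -0.0075 and GLIS2 by -0.27 (adjusted p = 0.99 and 0.54).

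Among genes reported elsewhere to work with or under ZIC proteins, 3 of 7 were detected on at least 2 arrays. The 1.2-fold criterion was passed by 2 of the 3, in opposite directions, against 7.92% of all genes tested. APOE, a lipid carrier made by glia, went from 13.28 ± 0.14 (SD, n = 2 arrays) in the anterior to 12.99 ± 0.13 in the posterior lobes, a log2 difference of -0.29 (adjusted p = 0.42 by limma). GRIN2C, an NMDA receptor subunit of maturing granule neurons, went from 7.07 ± 0.15 to 7.39 ± 0.12, a log2 difference of 0.32 (adjusted p = 0.47 by limma), with a signal near background and detected on 3 of 4 arrays. Neither gene passed the adjusted p. EPHB1, a guidance receptor downstream of ZIC2 in the retina, differed by 0.0025. The inhibitor MDFI, the granule progenitor factor ATOH1, the dopamine receptor DRD1A and the serotonin transporter SLC6A4 were not detected on any array. The median log2 difference of the 3 genes was 0.0025, and -0.14 with every tested probe or with a stricter detection filter.

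Of 19 factors of the granule neuron lineage, 13 were tested, and 1 passed the criterion, against 7.92% of all genes tested. ETV1, a factor of maturing granule neurons, had 10.15 and 10.41 in the anterior and 9.75 and 9.54 in the posterior lobes, lower on both posterior arrays (log2 difference -0.64, adjusted p = 0.24 by limma). The other 12 ranged from -0.30 for BARHL1, a homeobox gene of granule progenitors, to 0.16 for INSM1, which marks newly born neurons. The median of the 13 was -0.04. With every tested probe in place of 1 per gene, 3 passed and the median was 0.0067. Of the granule progenitor markers, MKI67 and TOP2A, genes of dividing cells, had differences of 0.08 and 0.20 (adjusted p = 0.72 and 0.51), and 0 of the 4 tested markers passed the criterion. The summed signal of these 4 was 18942 and 17366 on the anterior and 18745 and 18782 on the posterior arrays, which overlap. Of 7 tested markers of maturing granule neurons 5 were lower in the posterior lobes and 2 higher. ETV1, lower, and GRIN2C, higher, passed the criterion, against 7.92% of all genes tested. The summed signal of the 7 was 36711 and 37038 on the anterior and 35008 and 34574 on the posterior arrays, with no overlap.

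Of the 12 nearest protein-coding genes with a probe, 3 on each side of either pair, 9 were tested. The criterion was passed by 1 of the 9, against 7.92% of all genes tested. PCCA, a mitochondrial enzyme gene beside ZIC2, had 11.70 and 11.68 in the anterior and 12.11 and 11.93 in the posterior lobes, higher on both posterior arrays (log2 difference 0.33, adjusted p = 0.34 by limma). On the far side of PCCA, TMTC4 differed by 0.13 and NALCN, a sodium leak channel gene, by -0.19. On the other side of the pair, TM9SF2 differed by -0.09. Of the neighbours of ZIC1 and ZIC4, PLSCR1 was at 0.03, TBC1D2B at 0.03, ADAMTS7 at 0.0021, MORF4L1 at 0.08 and 1700057G04RIK at 0.11. PLSCR2, CLYBL and TIMM8A2 were not detected. The median over the 9 genes was 0.03.

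**Figure D3:**
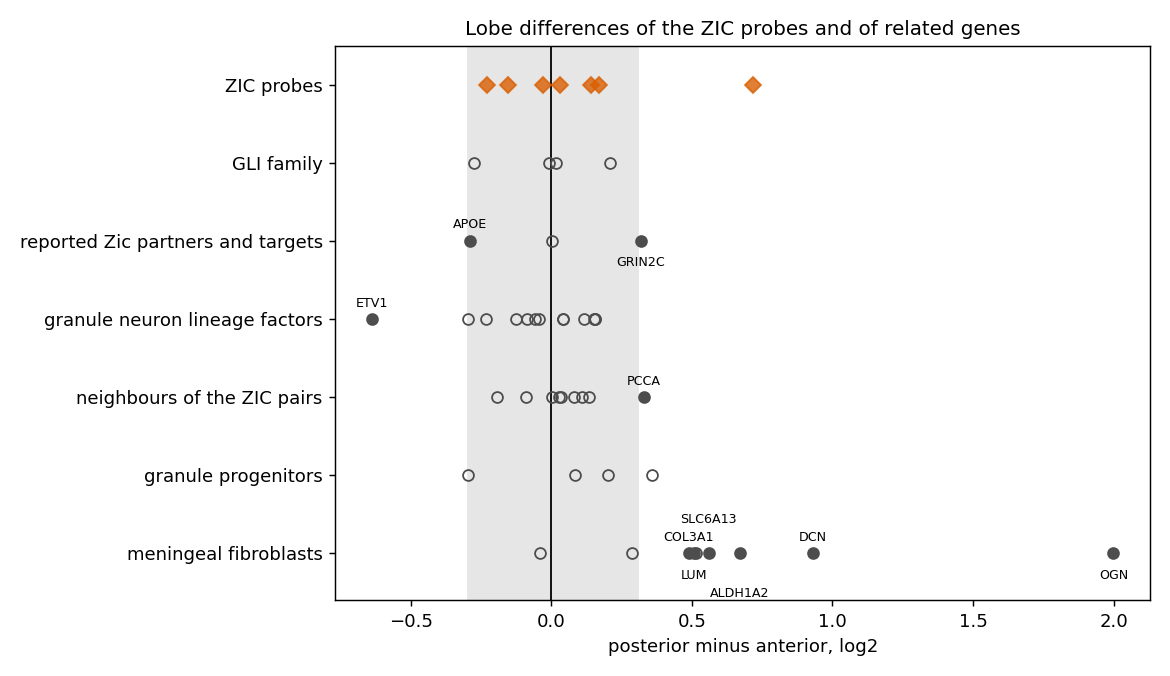
Log2 difference, posterior minus anterior (horizontal axis), of the 7 detected ZIC probes (orange diamonds) and of the tested genes of 6 lists, 1 probe per gene (circles, filled and named where the 1.2-fold criterion was passed). The grey band runs from the 5th to the 95th percentile of 15615 genes, -0.30 to 0.31, and ZIC2 ILMN_2470518 lies outside it at 0.72, as do most meningeal fibroblast genes.

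Fibroblasts of the meninges, which can express ZIC genes, differed between the samples. Of 11 markers 9 were tested, 8 were higher in the posterior lobes, and 6 passed the 1.2-fold criterion, all of them higher. Over all genes tested, 7.92% passed it in either direction. The matrix genes OGN and DCN rose by 2.00 and 0.93 on the log2 scale and passed the adjusted p (0.035 and 0.024 by limma). The summed signal of the 9 markers was 6883 and 7525 on the anterior and 11845 and 13080 on the posterior arrays, with no overlap. The defining transcription factors FOXC2 and TBX18 were not detected, and FOXC1 differed by 0.29 (adjusted p = 0.62). Oligodendrocytes, the myelin-forming cells, moved the other way, with 5 of 5 markers past the criterion and lower in the posterior lobes and a summed signal of 63311 and 62593 against 42061 and 40863. Of 4 tested interneuron markers 2 were higher and 2 lower in the posterior lobes, and PTF1A and LHX5, both higher, passed it. Of 4 unipolar brush cell markers 2 were higher and 2 lower, and CALB2, higher, passed it. Of the choroid plexus markers CLIC6, lower, passed it, while 0 of 5 astroglial, 0 of 3 Purkinje cell and 0 of 3 endothelial markers did. The part of any of these cells in the ZIC2 difference was not tested.

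The genes with the profiles most like those of the ZIC genes over the 4 arrays were taken from the brightest tested probe of each. For ZIC1 they were CCDC53, 4930565G20RIK and EG666577, with root mean square differences from 0.0074 to 0.0088, and 765 of the 21726 tested probes lay within 0.05. For ZIC4 they were TMOD3, LOC193533 and NUDT19, from 0.0079 to 0.010, with 736 within 0.05. Profiles this flat are common, so these neighbours are not particular. The steeper profile of ZIC2 ILMN_2470518 had 3 probes within 0.05, those of RNF41, the axon guidance receptor gene DCC and the coactivator gene CREBBP, at 0.045 to 0.049. Steep profiles are rarer, so a fixed distance holds fewer probes, and this count does not make these genes particular to ZIC2.

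**Figure D4:**
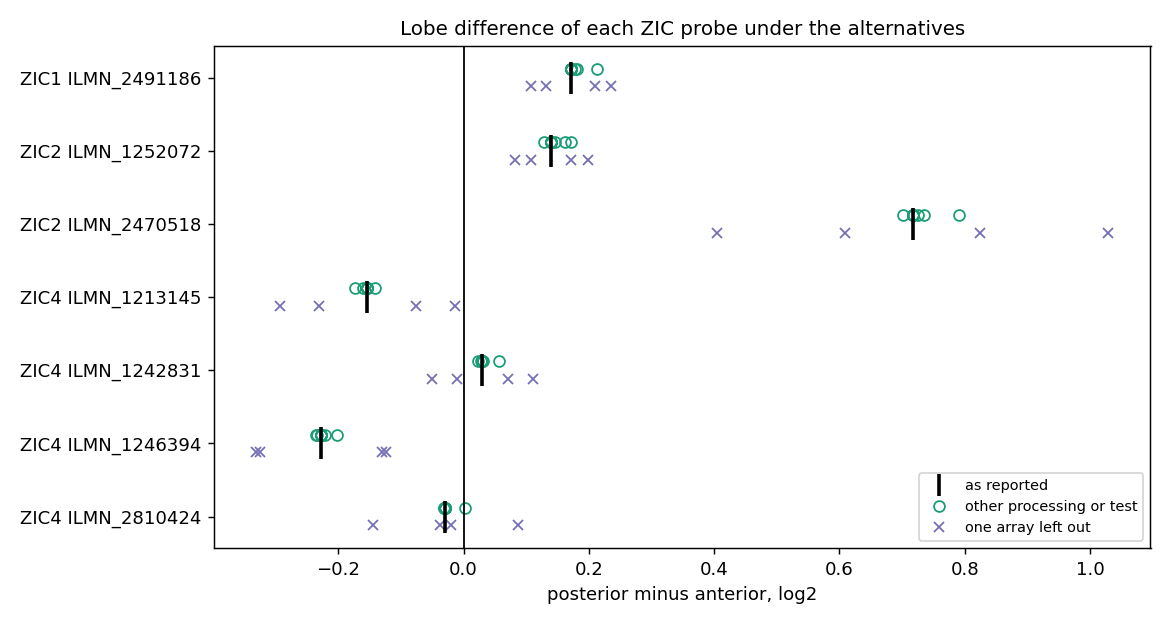
Log2 difference, posterior minus anterior (horizontal axis), of the 7 detected ZIC probes as reported (black bars), under other processing or tests (green circles) and with 1 array left out (purple crosses). ZIC1 and both ZIC2 probes stay above 0 throughout, ZIC2 ILMN_2470518 ranges from 0.41 to 1.03 and ZIC4 ILMN_1242831 and ILMN_2810424 fall on both sides of 0.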

How the data were processed

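RNA of 2 anterior and 2 posterior lobe samples was measured on 1 array each. The authors deposited, per probe and array, the mean intensity over beads, its SD and the bead number (GenomeStudio 1.9.0, with no normalization per the file header), and a detection score, the fraction of negative control probes dimmer than the probe. Detection p-values are 1 minus that fraction. Another 16 columns were not used. The columns were assigned by the sample numbers in the labels.

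Intensities were quantile normalized, set to at least 1 and taken to log2 (R 4.3.3). Probes with a detection p under 0.05 on at least 2 arrays were tested with limma 3.58.1 (lmFit, eBayes with an intensity trend), with Benjamini-Hochberg adjustment. The number of arrays limits the precision. For lists, the probe with the highest mean signal stood for a gene, and lists are described by counts and medians. Members and lists were chosen with earlier results of these data known. All ZIC probes, the GLI family, the partners and targets and the neighbours are named, and of the granule lineage factors those past the 1.2-fold criterion and, of the marker lists, genes whose values bear on a ZIC result, with the ends of their range named after their values were seen. Gene order and start regions are from RefSeq (GRCm38.p6); the array table names no genome build, and start regions are not probe positions. The fits were tested on simulated data. Alternatives were normexp background correction (offset 16), no normalization, a common 75th percentile, cyclic loess, other detection filters, no trend, the methods' t-test, a replicate block, 1.5-fold, every tested probe of a listed gene, and leaving out each array.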

Additional observations from a re-analysis of the deposited data

How the results depend on the processing

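Over 14 alternatives, 92 of the 98 differences of the 7 tested ZIC probes kept their sign and their side of the adjusted p of 0.05, and the exceptions were all of ZIC2 ILMN_2470518 and of a pair of ZIC4 probes. The number of ZIC probes past the 1.2-fold criterion was 1 by limma, 1 at 1.5-fold and 0 under the methods' t-test. Leaving out an array gave 0 to 3, namely 3 without anterior replicate 1 and 0 without posterior replicate 1. The number past the adjusted p, 0 by limma, was 0 to 1 when an array was left out, with 1 without anterior replicate 1. With the replicate number as a block, 588 of the 21726 tested probes passed the adjusted p. Of the ZIC probes 1 did, ZIC2 ILMN_2470518 at 0.72 (adjusted p = 0.018 by limma). The labels do not say that replicate numbers mark a shared animal. XIST, DDX3Y and the choroid plexus markers differed between replicates, and the differences between replicates correlated between the lobes with r = 0.46 over the tested probes. Over all alternatives the adjusted p of this probe ranged from 4.0e-04 to 1.00. ZIC4 ILMN_2810424 changed sign to 0.0023 with a common 75th percentile and ranged from -0.14 to 0.086 with an array left out, positive without posterior replicate 1. ZIC4 ILMN_1242831 ranged from -0.050 to 0.11, at -0.050 without anterior replicate 2 and -0.010 without posterior replicate 1. The causes were not tested.

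Among all probes the 1.2-fold criterion gave 1802 calls, 741 with the methods' t-test, 2818 with the block, 4688 without anterior replicate 1, and 770 and 807 without posterior replicates 1 and 2. The adjusted p gave 23 calls, 123 without normalization, 73 without a filter, 13 without the trend, 0 with the methods' t-test, 588 with the block, 2613 and 248 without anterior replicates 1 and 2 and 0 without either posterior array. A lobe reduced to 1 array was taken to have the spread of the other. The fits without anterior replicate 1 and without posterior replicate 1 tested 21201 and 21422 probes, close to the 21726 of the main fit. The ZIC counts given above for these fits thus moved with those of the whole array, and their rise and fall are not particular to the ZIC probes. With all 4 arrays kept, the number of genes past the criterion was 0 to 1 in the GLI family, 1 with the block and with every tested probe. Among the partners and targets it was 0 to 2, and 0 without normalization and with the methods' t-test. Among the granule lineage factors it was 0 to 3, 0 with the t-test and 3 with every tested probe. Among the neighbours it was 0 to 2, 0 with the t-test and 2 with every tested probe.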
